A study of Arabidopsis thaliana with 16 samples.

Results

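Levels of 10 chaperone and heat shock regulator genes, chosen by name out of 33201 loci with an expression value, were compared between sorted cell populations of the Arabidopsis thaliana root tip. They are the HSP70 genes HSP70-4 (AT3G12580), HSC70-1 (AT5G02500) and BIP3 (AT1G09080), the HSP90 gene HSP90.1 (AT5G52640), the HSP100 gene HSP101 (AT1G74310), the co-chaperone gene ROF2 (AT5G48570), the heat shock factor genes HSFA2 (AT2G26150), HSFA7A (AT3G51910) and HSFB2A (AT5G62020), and the coactivator gene MBF1C (AT3G24500). The names were picked with the levels in these same populations in view. Every level and ratio of the 10 genes below is therefore a description of the measured values that selected them, and no test was run on them.

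To ask which genes act in the cortex endodermis initial (CEI), a stem cell whose daughters form the cortex and the endodermis, the study profiled FACS-sorted root tip cells from 5-day-old seedlings, with 4 libraries for each of 4 populations. C6 held the GFP positive cells of pCYCD6:GUS-GFP, a marker of the CEI in an otherwise wild-type background, and w5C6 held the GFP positive cells of the same marker crossed into wox5, a loss-of-function mutant of the WOX5 homeobox gene. W5S held the GFP positive cells of pWOX5:erGFP, which marks the quiescent center (QC), and W5NS held the cells of this line without GFP. All 4 populations came from roughly 1 mm of root tip, grown on one medium at one temperature without a heat treatment in the labels, and all were freed of their cell walls (protoplasted) before sorting. The CYCD6 promoter is described by the study as active beyond the CEI in wox5, so w5C6 can hold other cells than C6. W5NS was not sorted against the CEI marker and can hold CEI cells. C6 and w5C6 came from another reporter line than W5NS and W5S, and line and population cannot be told apart in a comparison across them.

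Each locus had 1 FPKM value (a fragment count divided by transcript length and by library size) in each population, which the authors pooled from the 4 libraries. Values per library were not used here, so no spread between replicates and no depth can be given, and which neighbours in an order of levels differ beyond their spread could not be judged. The sum of FPKM ran from 726062 in W5NS to 957091 in C6, and loci listed at 0 from 3957 in w5C6 to 8239 in W5S. WOX5 was highest in W5S at 206 FPKM and lowest in w5C6 at 0.0865 FPKM, as its labels give for these 2 ends. It still stood at 42.1 FPKM in the GFP negative W5NS and 18.4 in C6. The other QC markers hardly set W5S apart from W5NS, PLT1 at 172 and 151 FPKM and PLT2 at 78.4 and 71.1. CYCD6;1 was at 9.75 FPKM in C6, 7.01 in w5C6, 0.828 in W5S and 7.02 in W5NS, so the gene behind the CEI reporter set C6 apart from W5S but hardly from W5NS. Of 9 CEI and endodermis markers 8 were highest in C6, with sums of 815 FPKM in C6, 130 in w5C6, 174 in W5S and 194 in W5NS. Summed markers of the root cap (4 genes) ranged from 99.7 FPKM in w5C6 to 345 in W5S. BRN1 and BRN2 were highest in W5S, at 146 and 126 FPKM, and SMB and FEZ in W5NS, at 72.2 and 52.8. Sums ranged from 138 in W5NS to 343 in w5C6 for the epidermis (4 genes) and from 47.5 in C6 to 81.6 in W5NS for the vasculature (5 genes). These lists were split as well. COBL9 and EXPA7 were highest in w5C6, at 130 and 195 FPKM, whereas WER and GL2 were lowest there, at 14.5 and 2.95. SHR, TMO5 and ATHB8 were highest in W5NS, ATHB8 at 32.5 FPKM, and APL and WOL in w5C6, at 7.33 and 36.4. None of these markers was listed at 0. In a pool of sorted cells, fewer cells of a type and less RNA per cell cannot be told apart.

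Chaperones bind unfolded proteins and help them fold, cross membranes or be degraded. HSP70 proteins bind exposed hydrophobic stretches in cycles driven by ATP and J-domain partners, HSP90 proteins act later on partly folded clients such as signalling proteins, and HSP100 proteins of the ClpB type pull proteins out of aggregates. In plants many of these genes are switched on within minutes of heat by heat shock factors, which bind repeats of the bases GAA and its complement TTC, whereas other copies are expressed at all times. BiP proteins are the HSP70 proteins of the endoplasmic reticulum (ER), and BIP3 is known for its induction by unfolded proteins in that compartment.

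The 10 genes lie on chromosomes 1, 2, 3 and 5, and their longest coding models in RefSeq TAIR10.1 range from 148 residues for MBF1C to 911 residues for HSP101. HSP70-4 and HSC70-1 encode 650 and 651 residues, each from 2 coding exons, and the 3 heat shock factors encode 272 to 345 residues, also from 2 coding exons. No 100-base exon window of any of the 10 genes, the length of a read, occurred exactly anywhere else in that assembly. HSP101 overlaps AT1G74300 on the other strand by 101 bases, and that locus stood at 1.34 to 7.33 FPKM. MBF1C overlaps 3 loci on the other strand, MSH7 by 22 bases, ALDH2C4 by 124 and the antisense RNA AT3G04685 by 176. ALDH2C4 was at 155 FPKM in C6, 133 in w5C6, 172 in W5S and 91.8 in W5NS, and the library kit is not stated to keep the strand, so part of the reads of MBF1C cannot be told apart from those of its neighbours.

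Stretches of 3 alternating GAA and TTC units, each 2 bases apart, form the usual binding element of heat shock factors. They were searched on both strands from 250 bases before to 50 bases after the RefSeq gene start. The stretches found are shown because the 10 genes include both the factors and genes known to respond to them, with the element in capitals, written 5′ to 3′ on the strand of the gene, and with its first and last base counted from the gene start (+1).
HSP70-4, chromosome 3, minus strand, 21 to 33: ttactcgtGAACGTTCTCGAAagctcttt
HSFA2, chromosome 2, plus strand, -88 to -76: ttagtaacGAAGTTTCTGGAAcattgtct
HSFA7A, chromosome 3, plus strand, -192 to -180: ttacgaagTTCCAGAAGTTTCgactattc
HSFA7A, chromosome 3, plus strand, -142 to -130: aaaaccgtTTCCAGAAGTTTCtaatttct
An element of 3 units was present in 3 of the 10 windows, against 0.481% of 27443 windows of protein-coding genes. The shorter form of 2 units (GAANNTTC or TTCNNGAA) was present in 4 of the 10, the same 3 genes and HSP101, against 19.3% of all windows. All 3-unit elements contain 2-unit forms. The other 6 windows held neither form, which says only that these letters are not in this stretch.

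The ER stress response element, CCAAT and CACG separated by 10 bases, was searched in the same way on both strands and occurred in BIP3 alone of the 10 genes, at 2 positions. Its copies are shown because BIP3 is the one ER chaperone of the group, and both lie in reverse orientation, with the element in capitals.
BIP3, chromosome 1, minus strand, -174 to -156: tgtcaCGTGTCTGCTTGTGATTGGgtact
BIP3, chromosome 1, minus strand, -96 to -78: gcttaCGTGTCAAGAAGTGATTGGagagg
This element was found in 0.849% of all windows, and the shorter TGACGTGG (or CCACGTCA), found in 1.51%, was in none of the 10. A match of letters is a description of the sequence and does not show that a factor binds there.

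Among the 10 genes, 8 were highest in C6 and 8 were lowest in W5S. Of the 22875 loci of at least 1 FPKM in any population, 25.3% were highest in C6 and 42.0% were lowest in W5S. The exceptions at the top were HSC70-1 and HSFB2A, both highest in W5NS, and those at the bottom were HSFA2 and HSFB2A, both lowest in w5C6. The number highest in C6 stayed at 8 under 4 other scalings of the populations, and the number lowest in W5S became 7 under each of them, with HSP70-4 lowest in w5C6 instead. The shares of all loci under these scalings were not computed. The scaling called organelle loci removed also brought the remaining FPKM of every population to an equal sum. Organelle loci held only 1.34% of the FPKM in W5S to 2.90% in w5C6.

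**Figure D1:**
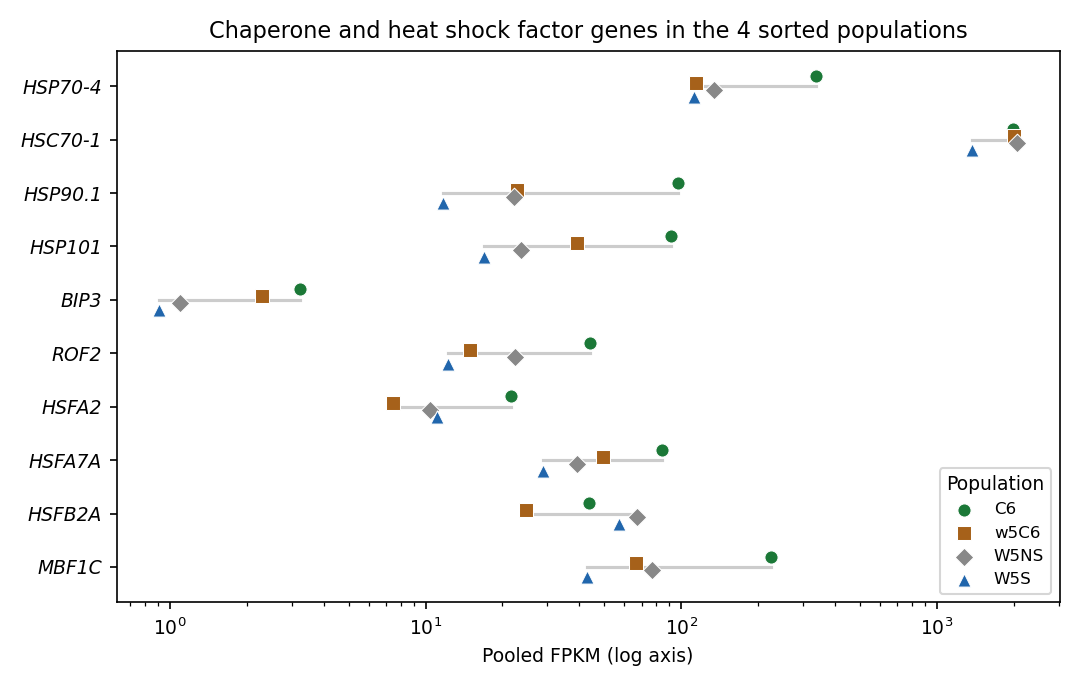
Pooled FPKM (log axis) of the 10 genes, 1 point per population, with a grey line from the lowest to the highest level and points of a gene set slightly apart in height for legibility. C6 (circles) is at the right end for all genes but HSC70-1 and HSFB2A, and the levels span from 0.910 FPKM for BIP3 in W5S to 2057 FPKM for HSC70-1 in W5NS.

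HSC70-1 encodes the main cytosolic HSP70 that is present without stress. It stood at 1982 FPKM in C6, 1996 in w5C6, 1374 in W5S and 2057 in W5NS, which made it number 18, 10, 27 and 3 from the top of these populations. Levels in C6, w5C6 and W5NS lay within 1.04-fold of each other, and W5S was 1.44-fold below C6. HSC70-1 alone made up 51.2% of the summed FPKM of 18 HSP70 and HSP110 genes in C6, 57.3% in w5C6, 48.4% in W5S and 58.1% in W5NS.

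HSP70-4, a heat-inducible cytosolic HSP70, stood at 336 FPKM in C6, 115 in w5C6, 112 in W5S and 134 in W5NS. C6 was 2.51-fold above W5NS and 2.93-fold above w5C6, while the 3 lower populations lay close together, with w5C6 at 1.03 times W5S. Its level in C6 was 16.9% of that of HSC70-1, against 5.75% in w5C6, 6.51% in W5NS and 8.14% in W5S. Since FPKM are scaled to transcript length, these shares compare levels between genes.

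HSP90.1 encodes the heat-inducible cytosolic HSP90 and had the widest range of the 10 genes, 8.24-fold from lowest to highest. It stood at 96.8 FPKM in C6, 22.8 in w5C6, 11.7 in W5S and 22.1 in W5NS. C6 was 4.24-fold above w5C6, the next population, and w5C6 was 1.03-fold above W5NS, a step that turned to -0.25 on the log2 scale with organelle loci removed. HSP90.1 made up 7.11% of the summed FPKM of 7 HSP90 genes in C6, against 1.94% in w5C6, 1.10% in W5S and 1.68% in W5NS.

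HSP101, the cytosolic disaggregase that plants need to survive severe heat after acclimation, stood at 91.1 FPKM in C6, 39.1 in w5C6, 16.9 in W5S and 23.7 in W5NS. C6 was 2.33-fold above w5C6 and 3.85-fold above W5NS. It was the only gene of the 10 for which w5C6 was at least 2-fold above another population on the log2(FPKM + 1) scale, at 2.31 times W5S, and this ratio fell just short of 2-fold with organelle loci removed. Its share of the summed FPKM of 5 HSP100 genes was 28.7% in C6, 16.6% in w5C6, 8.70% in W5S and 12.6% in W5NS.

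ROF2 encodes an FK506-binding peptidyl-prolyl isomerase that associates with HSP90 and acts on the activity of HSFA2. It stood at 44.2 FPKM in C6, 15.0 in w5C6, 12.2 in W5S and 22.5 in W5NS. C6 was 1.97-fold above W5NS and 2.95-fold above w5C6, so that the w5C6 level lay below that of the GFP negative cells.

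BIP3 was by far the lowest of the 10 genes, at 3.23 FPKM in C6, 2.29 in w5C6, 0.910 in W5S and 1.09 in W5NS. Both CEI marker populations were above both populations of the WOX5 reporter line, w5C6 by 2.09-fold over W5NS. At such levels the value of 1 added to FPKM before taking logarithms weighs heavily, and the C6 over W5NS ratio of 2.95-fold on FPKM became 1.01 on the log2(FPKM + 1) scale. BIP3 contributed 0.858% of the summed FPKM of BIP1, BIP2 and BIP3 in C6 and 0.150% in W5S.

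The 3 heat shock factor genes did not share a single order. HSFA2, a class A activator that prolongs the heat response and is itself induced by heat, stood at 21.6 FPKM in C6, 7.43 in w5C6, 11.0 in W5S and 10.4 in W5NS. C6 was 1.96-fold above W5S, the next population, and 2.91-fold above w5C6, the lowest. HSFA7A, another class A factor induced by heat, stood at 83.9 FPKM in C6, 49.5 in w5C6, 28.8 in W5S and 39.3 in W5NS, with steps of 1.26-fold to 1.70-fold from 1 population to the next lower.

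HSFB2A, a class B factor of the group that lacks the activation motif of class A, was the only gene of the 10 with both populations of the WOX5 reporter line above both CEI marker populations. It stood at 67.1 FPKM in W5NS, 57.1 in W5S, 43.7 in C6 and 24.7 in w5C6. The w5C6 level was the lowest, 2.71-fold below W5NS and 1.77-fold below C6. It made up 16.4% of the summed FPKM of 21 heat shock factor genes in W5NS and 5.52% in w5C6.

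MBF1C, a transcriptional coactivator that accumulates in heat and supports thermotolerance, stood at 225 FPKM in C6, 66.5 in w5C6, 42.8 in W5S and 76.9 in W5NS. C6 was 2.93-fold above W5NS, the next population, and 5.27-fold above W5S. It was the largest member of its 3-gene family in C6, with 49.4% of the summed FPKM, but made up 26.1% in w5C6, 30.8% in W5NS and 16.8% in W5S.

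**Figure D2:**
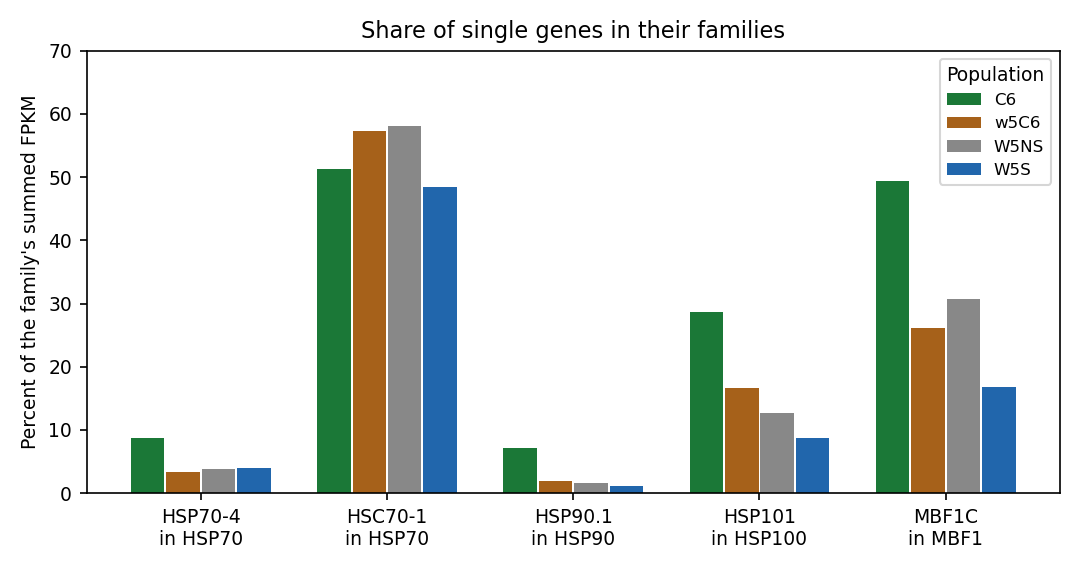
Share (percent) of HSP70-4 and HSC70-1 in the summed FPKM of the 18 HSP70 and HSP110 genes, of HSP90.1 in 7 HSP90 genes, of HSP101 in 5 HSP100 genes and of MBF1C in 3 MBF1 genes, with 1 bar per population and no error bars since there is 1 value each. For the 4 genes other than HSC70-1 the C6 bar is the tallest, and MBF1C ranges from 16.8% in W5S to 49.4% in C6.

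C6 over W5NS compares cells of the CEI marker with root tip cells that lack the QC marker. A gene is counted as higher or lower when it differed by at least 2-fold on the log2(FPKM + 1) scale, among loci of at least 1 FPKM in either population, a filter that all 10 genes passed in every comparison. Of the 10 genes 6 were higher in C6, namely HSP90.1, HSP101, MBF1C, HSP70-4, HSFA7A and BIP3, and none was lower, against 11.9% higher and 6.46% lower among all 20787 loci. The median log2 ratio of the 10 genes was 1.04 and that of all loci 0.11. HSFA2 at 0.99 and ROF2 at 0.94 lay just inside the 2-fold limit, and BIP3 at 1.01 and HSFA7A at 1.07 just outside it. HSC70-1 at -0.05 and HSFB2A at -0.61 were the only genes below 0. The count depended on scaling. It was 4 with the populations scaled to a common median or upper quartile, which left out BIP3 and HSFA7A, beside 9.96% and 9.65% of all loci. It was 3 with organelle loci removed (6.77% of all loci) or with scaling to 6 reference genes (7.10%), which left HSP90.1, HSP101 and MBF1C. The 6 reference genes were not all steady across the populations.

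In w5C6 over W5NS the question is which of these levels were also raised in the marker cells of wox5. None of the 10 genes was higher, and HSFB2A was lower at a log2 ratio of -1.40, against 16.3% higher and 3.81% lower among all 22285 loci. The median of the 10 genes was -0.13 and that of all loci 0.22. HSP101 at 0.70 and BIP3 at 0.65 were the highest, while HSP90.1 stood at 0.04, HSP70-4 at -0.22 and MBF1C at -0.21.

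Within the CEI reporter, w5C6 over C6 compares wox5 with its wild-type background. In w5C6, 6 of the 10 genes were lower and none was higher, against 4.90% lower and 12.3% higher among all 22322 loci. HSP90.1 was lowest at a log2 ratio of -2.04, followed by MBF1C at -1.75, HSP70-4 at -1.54, ROF2 at -1.50, HSFA2 at -1.42 and HSP101 at -1.20. HSFB2A at -0.80, HSFA7A at -0.75 and BIP3 at -0.36 did not reach 2-fold, and HSC70-1 stood at 0.01. The median of the 10 genes was -1.31 and that of all loci 0.10, and the 6 genes were the same under each scaling. Of the 9 CEI and endodermis markers 5 were lower in w5C6 by the same rule, and these were the Casparian strip genes CASP1 to CASP5. CASP1 stood at 389 FPKM in C6 and 13.3 in w5C6. The other 4 stayed within 2-fold, SCR at 48.9 FPKM in C6 and 47.6 in w5C6, CYCD6;1 at 9.75 and 7.01, MGP at 52.7 and 30.3, and MYB36 at 31.7 and 16.3. The photosynthesis genes CAB1, RBCS1A and GAPA summed to 10.9 FPKM in C6 and 2499 in w5C6. The part that these markers or the cells they stand for have in the levels of the 10 genes was not tested.

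Within the line of the QC reporter, W5S over W5NS compares GFP positive with GFP negative cells. None of the 10 genes was higher and none lower, against 6.32% and 10.7% among all 20229 loci. All but HSFA2, at 0.08, lay below 0, the lowest being HSP90.1 at -0.86, MBF1C at -0.83 and ROF2 at -0.83. These 3 became lower by the rule under scaling to reference genes, beside 15.6% of all loci at that setting. The median of the 10 genes was -0.45 and that of all loci -0.09.

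Set against the QC marker cells, C6 had 7 of the 10 genes higher and none lower, against 19.1% and 8.64% among all 20184 loci. The ratios ran from 2.94 on the log2 scale for HSP90.1, 2.37 for MBF1C and 2.36 for HSP101 down to 1.15 for BIP3, with ROF2, HSP70-4 and HSFA7A between them. HSFA2 at 0.91 and HSC70-1 at 0.53 were above 0 and HSFB2A at -0.38 was below it. In w5C6 over W5S, HSP101 was higher at 1.16 and HSFB2A lower at -1.17, that is 1 of the 10 genes in each direction, against 26.6% and 7.54% among all 22169 loci. The medians of the 10 genes were 1.54 in C6 and 0.58 in w5C6 over W5S, beside 0.22 and 0.36 for all loci. The 6 comparisons share their populations, so they are not separate pieces of evidence.

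**Figure D3:**
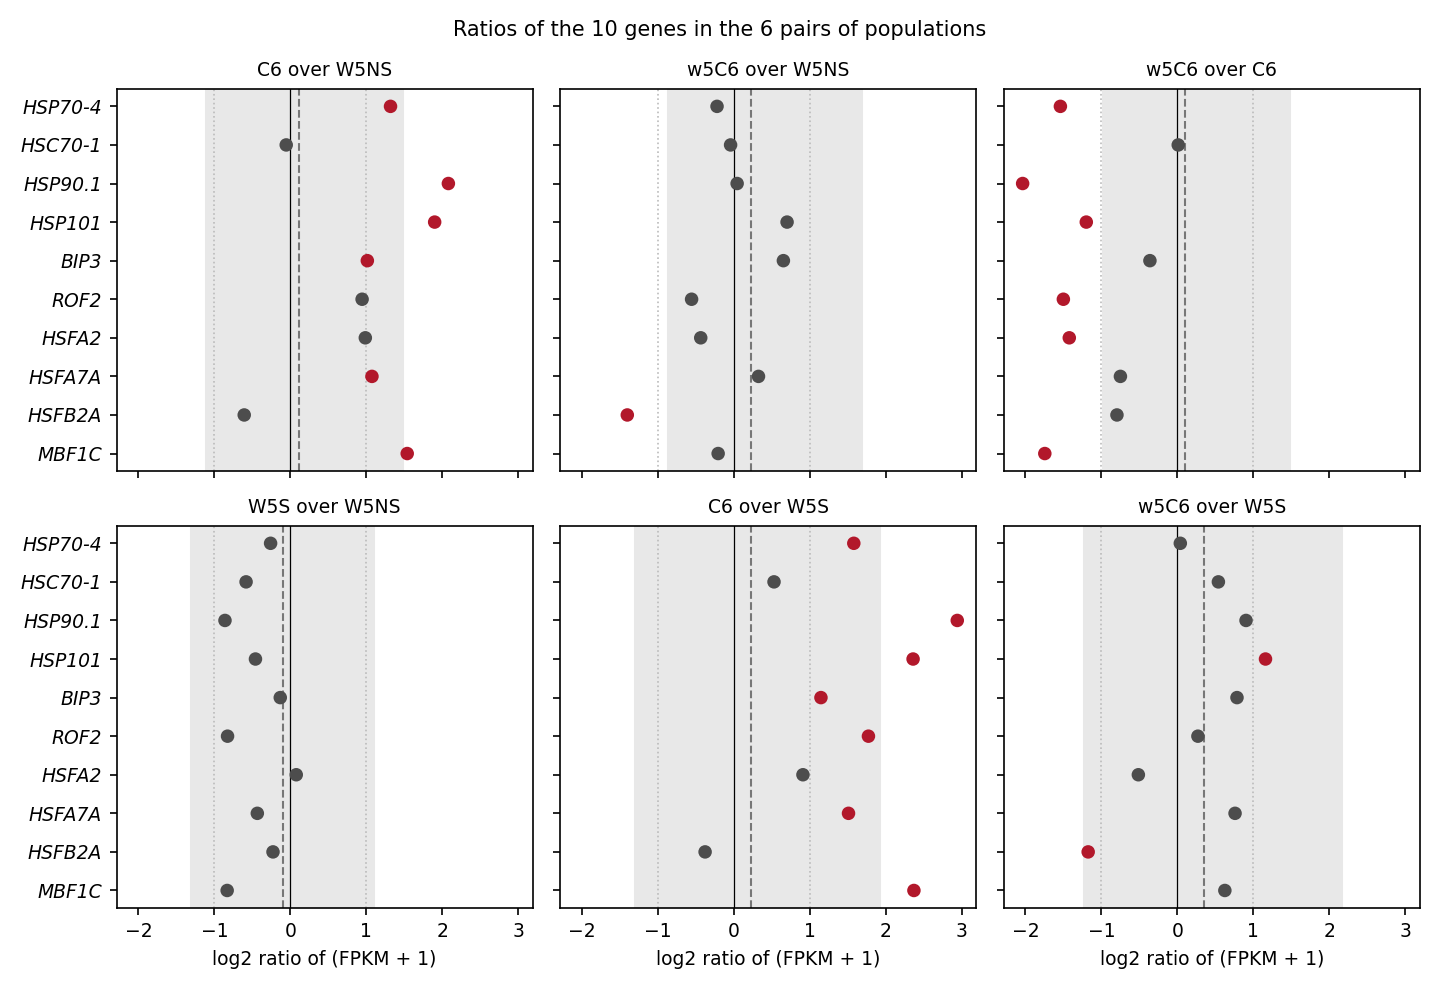
Log2 ratio of (FPKM + 1) of the 10 genes in the 6 pairs of populations, with red points at or past 2-fold (dotted lines), the median of all loci as a dashed line and the central 90% of all loci as a grey band. In C6 over W5NS the points of HSP90.1 (2.08), HSP101 (1.90) and MBF1C (1.54) lie beyond the band, and in w5C6 over C6 the 6 red points lie below it, while no point is red in W5S over W5NS.

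To see whether the 10 genes stand for their families, lists of related genes were counted in the same way, beside the 11.9% of all loci that were higher in C6 than in W5NS and the 4.90% that were lower in w5C6 than in C6. Of the other 15 HSP70 and HSP110 genes 14 passed the filter, of which 2 were higher in C6 than in W5NS and none lower, a share near that of all loci, and 3 were lower in w5C6 than in C6. HSC70-3 stood at 419 FPKM in C6, 174 in w5C6, 217 in W5S and 238 in W5NS and was among the latter. BIP1 and BIP2, the BiP genes expressed at all times, were both lowest in C6, with BIP2 at 245 FPKM in C6, 353 in w5C6, 444 in W5S and 323 in W5NS. The remaining genes of the 3 and the 2 were HSP70B and HSP70T-2, named after their values were seen, at 45.9 and 49.9 FPKM in C6 against 9.05 and 9.12 in W5NS.

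Among the other 6 HSP90 genes none differed by 2-fold between C6 and W5NS or between w5C6 and C6. The cytosolic HSP90.2 and HSP90.3, near relatives of HSP90.1, were at 550 and 310 FPKM in C6 and at 453 and 305 in W5NS. HSP90.7, the HSP90 of the ER, was lowest in C6 at 227 FPKM and highest in W5S at 438. Among the other 4 HSP100 genes, which act in plastids and mitochondria, none differed by 2-fold in either comparison, with CLPB3 at 50.7 FPKM in C6 and 40.8 in W5NS. MBF1A and MBF1B did not differ by 2-fold either, with MBF1A at 143 FPKM in C6 and 98.2 in W5NS.

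Of the 12 co-chaperone genes besides ROF2, 2 were higher in C6 than in W5NS, beside 11.9% of all loci, and 3 were lower in w5C6 than in C6, beside 4.90%. FES1A, which keeps cytosolic HSP70 from being degraded, was counted in both and stood at 188 FPKM in C6, 74.4 in w5C6, 56.8 in W5S and 58.2 in W5NS. BAG6, a BAG-domain partner of HSP70 named after its values were seen, was the other gene in both, at 106 FPKM in C6, 32.3 in w5C6, 13.7 in W5S and 20.5 in W5NS. HOP3, also named afterwards, was the third in w5C6 over C6, at 93.9 FPKM in C6 and 32.5 in w5C6. ROF1, the close relative of ROF2, differed little, with 113 FPKM in C6, 89.0 in w5C6, 66.7 in W5S and 95.7 in W5NS.

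Of the other 18 heat shock factor genes, 15 passed the filter in C6 over W5NS, with 4 higher and none lower, beside 11.9% higher and 6.46% lower among all loci. HSFB1, a class B factor, was the highest of the family in C6 and went with the majority of the 10 genes rather than with HSFB2A, at 189 FPKM in C6, 61.2 in w5C6, 35.9 in W5S and 51.1 in W5NS. HSFB4, known for its part in root stem cell divisions, was higher in C6 but not lower in w5C6, at 76.2 FPKM in C6, 68.7 in w5C6, 63.8 in W5S and 17.0 in W5NS. HSFC1 shared the order of HSFB2A, at 43.4 FPKM in W5NS, 39.0 in W5S, 22.2 in C6 and 15.1 in w5C6. In w5C6 over C6, 2 of the other factors were lower and none was higher, beside 4.90% lower and 12.3% higher among all loci.

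Small heat shock proteins hold unfolded proteins for the HSP70 and HSP101 machinery. Of 14 small heat shock protein genes, 13 were higher in C6 than in W5NS and 13 lower in w5C6 than in C6, with medians of 2.36 and -1.98 on the log2 scale, and their sums were 1804 FPKM in C6, 465 in w5C6, 248 in W5S and 303 in W5NS. HSP90.1, HSP101, BIP3 and HSFA7A had the same order of populations. Of the 17 genes of ER folding and the unfolded protein response besides BIP3, 15 stayed within 2-fold in C6 over W5NS, with 1 higher and 1 lower, and 16 did so in w5C6 over C6, with 1 lower. Their median log2 ratios were -0.43 in C6 over W5NS, beside 0.11 for all loci, and 0.37 when w5C6 was set over C6, beside 0.10. The J-domain gene ERDJ3A, named after its values were seen, was the gene past 2-fold in both comparisons in the direction of the 10 genes, at 31.7 FPKM in C6, 14.3 in W5NS and 11.2 in w5C6. The disulfide isomerase gene PDIL1-1 stood at 331 FPKM in C6, 568 in w5C6, 688 in W5S and 540 in W5NS, and the calreticulin gene CRT1A at 286, 380, 408 and 385 FPKM in that order.

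**Figure D4:**
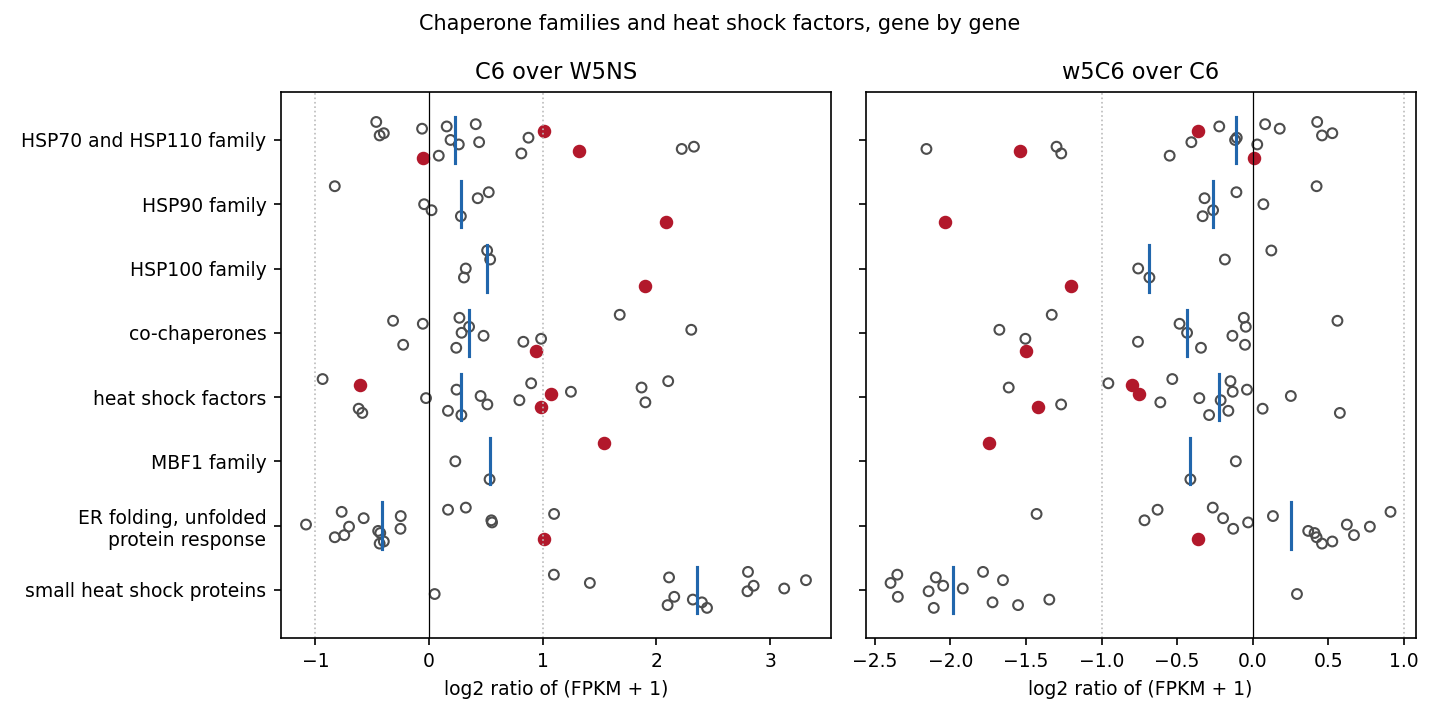
Log2 ratio of (FPKM + 1) of single genes in 8 lists for C6 over W5NS (left) and w5C6 over C6 (right), with the 10 genes as red points, other genes as open circles, list medians over all listed genes as blue bars and 2-fold as dotted lines; genes under 1 FPKM in both populations are not drawn, and BIP3 and 3 others stand in 2 lists. HSP90.1 and HSP101 lie apart from the rest of their families on both sides, and 13 of the 14 small heat shock protein genes lie past 2-fold on both.

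Counts of genes highest in C6 within these lists moved with scaling, except for the small heat shock proteins (13 of 14 under every scaling tried) and the MBF1 family (2 of 3). With organelle loci removed and the remaining sums made equal, the count fell from 11 to 6 of 21 heat shock factors and from 10 to 7 of 18 HSP70 and HSP110 genes. It also fell from 10 to 4 of 13 co-chaperones, from 5 to 3 of 7 HSP90 genes and from 4 to 1 of 5 HSP100 genes. Over all loci 25.3% were highest in C6 as deposited. That share was not computed under the other scalings, so the counts after rescaling have no share of all loci to be read against.

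The likeness of other genes to the average of the 10 was measured as the Euclidean distance between profiles of log2(FPKM + 1) over the 4 populations, each centred on its own mean, among 10953 loci with a mean of at least 10 FPKM. The nearest were AT5G18400 (distance 0.07), which stood at 138 FPKM in C6, 61.6 in w5C6, 49.2 in W5S and 71.1 in W5NS, and FAMT (0.08), a methyltransferase gene, at 181, 86.9, 66.5 and 95.7 FPKM in that order. AT5G03030, SAG24 and NBP35 followed at distances of 0.11 to 0.13. With 4 points per profile many genes come close. The nearest of the 10 genes to their own average was HSP70-4 at 0.32, with 52 other loci nearer than it, and the farthest was HSFB2A at 1.60, with 8825 nearer.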

How the data were processed

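RNA of 16 libraries, 4 for each of the 4 sorted populations, was amplified by the authors with a SMART-Seq low-input kit, in which rare transcripts can be lost at random, and sequenced as single reads of 100 bases. With the TuxNet interface they ran fastq-mcf for trimming, HISAT2 for alignment and Cufflinks for expression. Versions and the genome build were not given in the sources used here. The authors deposited 1 FPKM value per locus and population for 33201 loci. The header names no unit, so FPKM was inferred from that pipeline. Another 12 deposited columns hold the authors' own fold changes and q-values for the 6 pairs and were not used. With 1 value per population there is no replicate error, no depth and no test.

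Log2 ratios were taken of FPKM with a pseudocount of 1, which shrinks the ratios of genes with low values. A locus counted as higher or lower at 2-fold or more, among loci of at least 1 FPKM in either population. The calling code was run on a copy of the C6 values with set fold changes and no noise. That run checks only that the rule is coded as stated, and it says nothing about low values or ratios near 2-fold. The 10 genes, the gene lists, the markers and the comparisons were chosen with earlier results of these data known. Genes named from a list are its members among the 10 and up to 5 others of highest mean FPKM, and any other is marked as named after its values were seen. Of 33493 gene IDs, 32756 matched RefSeq TAIR10.1, which gave names, overlaps, coding lengths and promoter stretches by locus ID, with no coordinates. Of the loci, 282 name several IDs and were counted once. Alternatives were other pseudocounts, scalings, filters and folds, and 1 scaling, to reference genes, was added after the data were seen. The reference genes were PP2AA3, UBC21, TIP41L, SAND, ACT2 and UBQ10. By the 2-fold rule ACT2 was higher in w5C6 than in W5NS, and UBQ10 was higher in C6 than in W5S. The other 5 stayed within 2-fold in each of these comparisons. Where organelle loci were removed, the remaining FPKM of each population were then scaled to an equal sum. Python 3.11.15, pandas 2.3.3, NumPy 2.4.6 and matplotlib 3.10.9 were used.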

Additional observations from a re-analysis of the deposited data

How the results depend on the processing

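No paired analysis was possible because each population has 1 pooled value, and for the same reason no replicate could be left out. Of 120 alternative counts of the 10 genes, 102 stayed within 1.5 times the reported count. Percentages in brackets are the shares of all loci counted in the same direction at the same setting. In C6 over W5NS the count higher was 3 with organelle loci removed (6.77%), 3 with reference gene scaling (7.10%) and 1 at a fold of 4 (2.13%). The count lower was 1 at a fold of 1.5 (14.9%). In w5C6 over W5NS the count higher was 1 with a pseudocount of 0.1 (23.1%) and 2 at a fold of 1.5 (30.3%). The count lower was 0 at a fold of 4 (0.835%). In w5C6 over C6 the count lower was 1 at a fold of 4 (1.03%). In W5S over W5NS the count lower was 3 at a fold of 1.5 (23.8%) and 3 with reference gene scaling (15.6%). In C6 over W5S the count higher was 3 at a fold of 4 (4.46%). In w5C6 over W5S the count higher was 2 with a pseudocount of 0.1 (32.9%) and 5 at a fold of 1.5 (40.8%). It was 0 with a pseudocount of 10 (4.73%), with organelle loci removed (22.9%) or at a fold of 4 (6.23%). The count lower was 0 with a pseudocount of 10 (2.39%) and at a fold of 4 (1.30%). None of the 48 alternative medians and 4 of the 474 single ratios moved by 1.5-fold or more, those of BIP3 in 3 comparisons and of HSP90.1 in C6 over W5S with a pseudocount of 10, and no ratio past 2-fold changed sign. The scalings shifted all loci together. The one with organelle loci removed multiplied C6 by 0.882 and W5NS by 1.16 to make the remaining sums equal. In C6 over W5NS the median of all loci went from 0.11 to -0.26 with organelle loci removed, and the share of higher loci among those past 2-fold from 64.8% to 35.9%, or 37.9% with reference gene scaling. That share went from 81.1% to 63.9% in w5C6 over W5NS, from 37.2% to 26.6% in W5S over W5NS and from 68.9% to 51.9% in C6 over W5S with organelle loci removed. Relative to the median of all loci, the median of the 10 genes stayed between 0.93 and 0.98 in C6 over W5NS and between -1.41 and -1.40 in w5C6 over C6 under the 4 scalings.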

Other observations

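Some sensors and regulators of the heat and ER stress responses were looked at after their values were seen, and they did not share a single order. Among the HSFA1 factors, which start the heat response in Arabidopsis, HSFA1A and HSFA1D were highest in C6, at 5.14 and 13.2 FPKM, and lowest in W5S, at 2.03 and 8.09 FPKM. The next levels were close, at 4.04 FPKM in W5NS for HSFA1A and 11.7 in w5C6 for HSFA1D. HSFA1B and HSFA1E were lowest in C6 and highest in W5S, HSFA1E at 24.9 and 40.7 FPKM. IRE1A, a sensor of unfolded proteins in the ER membrane, was highest in W5S at 66.0 FPKM and stood at 32.3 in C6. Its relative IRE1B and BZIP60, a transcription factor that IRE1 activates, were highest in C6, at 15.5 and 70.7 FPKM, and lowest in W5S, at 10.7 and 38.6 FPKM. BZIP60 in w5C6 was close to its level in C6, at 69.2 FPKM. IRE1B in w5C6 stood at 12.8 FPKM, nearer to W5NS at 12.2 than to C6. Orders this close can move with scaling, as the counts of listed genes highest in C6 did.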
